A study of Arabidopsis thaliana with 41 samples.

Results

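Wild type Arabidopsis thaliana embryos were followed from day 10 to day 12 of age. The comparison rests on 6 of the 41 RNA-seq libraries of a time course of 2 genotypes and 7 ages: the 3 libraries of 10-day-old wild type embryos and the 3 of 12-day-old wild type embryos. The other libraries hold wild type at days 7, 8, 13, 15 and 17 and the val1 mutant at all 7 ages. VAL1, also called HSI2, is a B3-domain repressor of the seed maturation programme, and both genotypes were handled in parallel. All plants grew in soil under a long photoperiod with no treatment, and the labels give age as the difference between both groups. Embryos were cut out of siliques on a cold surface, washed to take away endosperm, and frozen before RNA was prepared. The labels name biological replicates but not how many plants or siliques each library pools.

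An Arabidopsis embryo first lays down its pattern by cell division, then fills its cotyledons with storage protein and oil while it is green, and at last dries out. The filling phase is driven by the LAFL regulators, LEC1, ABI3, FUS3 and LEC2, together with abscisic acid (ABA). In the drying phase the chloroplasts are dismantled and late embryogenesis abundant (LEA) proteins, which protect cells against loss of water, build up.

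Values are FPKM summed per gene and scaled between libraries, written scaled FPKM. They are given in the order day 10 replicates 1, 2 and 3, then day 12 replicate 1, a day 12 library whose column carries no matching number (the unnumbered library), and day 12 replicate 3. A log2 difference is day 12 minus day 10 on log2(scaled FPKM + 0.5), with its standard error (SE) and a p-value from limma adjusted over all 18389 genes tested, and a gene is said to have risen or fallen where that p-value is under 0.05. The 6 libraries hold an estimated 18961640 to 33799993 reads, and counts of reads were not used as such. Profiles correlated at 0.989 to 0.990 within day 10, at 0.974 to 0.983 within day 12 and at 0.933 to 0.961 between the days, as a description across genes. Day 12 replicate 3 was the day 12 library nearest to the day 10 mean for 2348 of the 4856 genes that changed. Scaling divided FPKM by 1.08 in that library and by 1.03 to 1.14 at day 10. The factor was 0.633 in day 12 replicate 1 and 0.653 in the unnumbered library. Ranks of replicate 3 within day 12 in scaled FPKM, given below, depend on these factors. The unnumbered library had 3.60% of its reads in transcripts of class codes other than = and j, the codes summed here, against 0.58 to 1.4% in the other 5 libraries. Transcripts opposite 18S ribosomal RNA held 3.09% of the reads of the unnumbered library, as part of that 3.60%. Day 10 replicate 2 was the lowest of its day for all 40 light reaction genes examined. Of 8 endosperm markers, ZOU, AGL62, FIS2, FWA and PHE1 were at 0 in all 6 libraries, and of 10 seed coat markers, TT12, TT16, AHA10 and MYB5 were.

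Between day 10 and day 12, 4856 of 18389 genes changed, which is 26.4% of those tested. Of these, 2172 rose (11.8%) and 2684 fell (14.6%). Most changes were moderate: 690 genes rose and 909 fell by at least 1 on the log2 scale, while 42 rose and 17 fell by at least 3. The 3 values of each day did not overlap for 7760 genes (42.2%). The split between rises and falls depended on the scaling. Without scaling, 680 genes rose and 7152 fell and the log2 difference of the median gene moved to -0.40, and with totals taken without storage and oil body genes, 1289 rose and 4083 fell with a median of -0.15. In the scaled values used here, that median was -0.00, and changes are relative to it. In whole embryos, fewer cells of a type and less RNA per cell cannot be told apart.

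**Figure D1:**
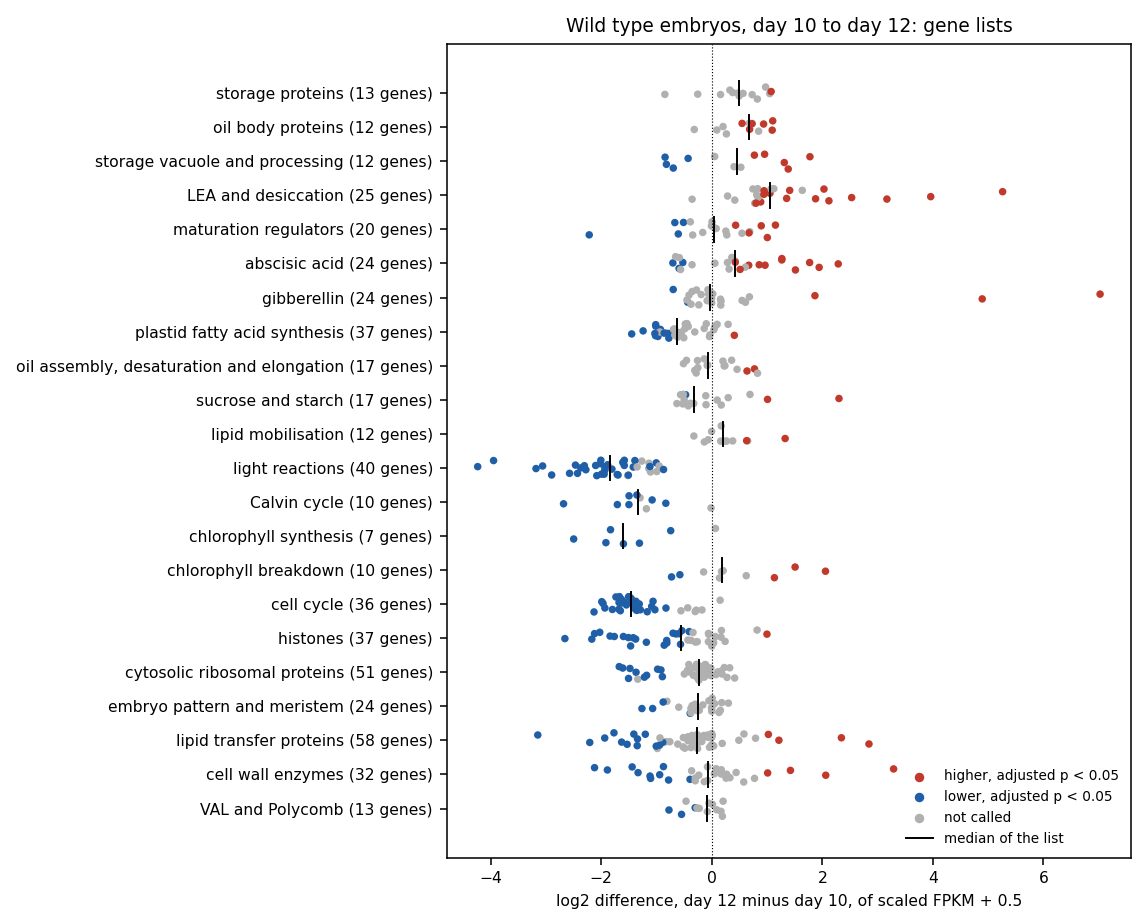
Log2 differences between day 12 and day 10 (horizontal axis) of the members of 22 gene lists in wild type embryos. Each point is a gene, red where it rose, blue where it fell and grey where it did not pass the test, and the black bar is the median of its list. Light reaction genes lie below 0 without exception, with a median of -1.84, whereas LEA genes have a median of 1.05.

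The largest rises belonged to 2 neighbouring genes of the GASA family of small cysteine-rich peptides, which is named for its regulation by gibberellin, and to a desiccation protein. GASA3 (AT4G09600) was at 5.88, 10.6 and 5.44 scaled FPKM at day 10 and at 1228, 1188 and 635 at day 12. The day 12 libraries lay far above those of day 10, a 130.2-fold rise (log2 difference 7.02 ± 0.28, adjusted p = 3.9e-18). EM1 (AT3G51810), a group 1 LEA protein of dry seeds, was at 1.41, 3.37 and 1.91 scaled FPKM and then at 143, 109 and 63.6 (5.26 ± 0.47, adjusted p = 4.7e-10). Its days did not overlap either, with replicate 3 the lowest of day 12. GASA2 (AT4G09610), next to GASA3 on chromosome 4, was at 0.823, 2.06 and 1.20 scaled FPKM and then at 79.0, 67.0 and 27.6 (4.89 ± 0.30, adjusted p = 2.7e-13). AT3G15670, a LEA family protein by its annotation, started from a higher level, 116, 117 and 115 scaled FPKM, and reached 2723, 2094 and 1046 (3.96 ± 0.31, adjusted p = 2.6e-11). For all 4 genes day 12 replicate 3 was the lowest of its day and still above every day 10 library.

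Sequences upstream of 4 genes are shown, 3 of the genes that rose most and an oil body gene, to print where 2 known seed promoter elements stand in them. Each is the 250 bases before the annotated start of the gene in RefSeq's TAIR10.1 assembly, written 5′ to 3′ along the strand of the gene. Capitals mark CATGCA, the core of the RY element that B3 regulators such as ABI3 and FUS3 bind, and ACGTG, the core of the ABA-responsive element that bZIP factors bind, on either strand. The windows are chr4:6073647-6073896 on the minus strand for GASA3, chr3:19214472-19214721 on the plus strand for EM1, chr3:5310989-5311238 on the minus strand for AT3G15670, and chr4:6268023-6268272 on the plus strand for HSD5, a steroleosin of the oil body surface.
GASA3: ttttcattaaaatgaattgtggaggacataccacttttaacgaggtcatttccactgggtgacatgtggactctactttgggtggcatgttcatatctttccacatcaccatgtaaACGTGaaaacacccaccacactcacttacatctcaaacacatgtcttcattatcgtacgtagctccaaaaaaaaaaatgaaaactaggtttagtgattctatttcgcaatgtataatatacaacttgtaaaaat
EM1: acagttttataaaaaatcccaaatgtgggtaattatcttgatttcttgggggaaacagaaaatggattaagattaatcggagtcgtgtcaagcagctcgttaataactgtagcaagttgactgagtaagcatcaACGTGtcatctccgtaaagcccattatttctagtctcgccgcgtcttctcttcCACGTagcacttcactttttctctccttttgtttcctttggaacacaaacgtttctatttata
AT3G15670: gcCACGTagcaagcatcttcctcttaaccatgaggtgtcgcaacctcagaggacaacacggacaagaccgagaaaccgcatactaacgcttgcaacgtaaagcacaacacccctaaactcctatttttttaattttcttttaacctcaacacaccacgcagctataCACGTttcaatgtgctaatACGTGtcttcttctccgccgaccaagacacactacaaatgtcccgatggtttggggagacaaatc
HSD5: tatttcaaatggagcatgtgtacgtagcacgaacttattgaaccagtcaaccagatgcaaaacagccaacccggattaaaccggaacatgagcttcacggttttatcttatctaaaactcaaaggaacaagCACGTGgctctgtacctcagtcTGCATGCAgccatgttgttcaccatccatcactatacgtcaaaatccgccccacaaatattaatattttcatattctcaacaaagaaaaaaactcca
GASA3 holds 1 ACGTG, EM1 holds 2 and AT3G15670 holds 3, and none of these 3 windows holds CATGCA. HSD5 holds both motifs, 2 overlapping CATGCA within a palindrome and 2 overlapping ACGTG within a G-box, CACGTG.

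Over all genes with such a window, 7.76% of 18141 held CATGCA on either strand and 23.6% held ACGTG. Of the 153 genes that rose by at least 2 on the log2 scale and have a window, 28 held CATGCA (18.3%) and 77 held ACGTG (50.3%). Of the 121 that fell by at least 2, 16 held CATGCA (13.2%) and 38 held ACGTG (31.4%). The lists differed in CATGCA, which stood in 11 of 13 storage protein and 12 of 12 oil body windows but in 6 of 25 LEA windows. ACGTG stood in 9 of 13 storage protein, 10 of 12 oil body and 23 of 25 LEA windows. It stood in 14 of 40 light reaction windows. CACGTG contains ACGTG and was found in 8 of 13 storage protein, 6 of 12 oil body and 16 of 25 LEA windows. Over all windows it was found in 7.95%. These counts describe letters in a window, not bound sites.

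**Figure D2:**
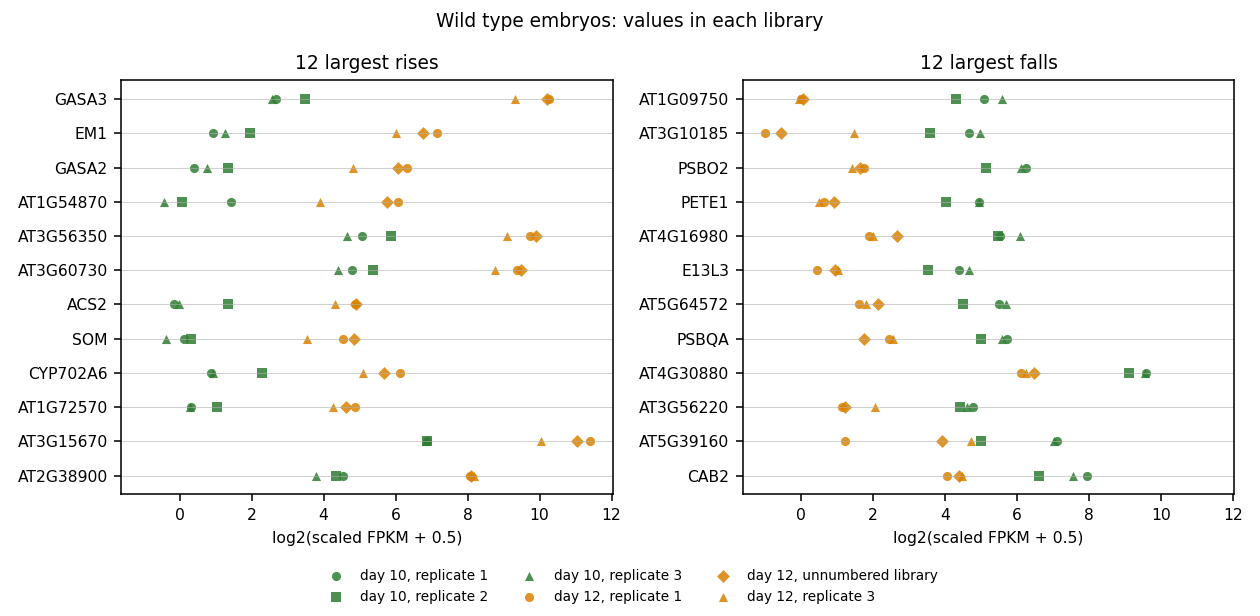
Log2(scaled FPKM + 0.5) in each of the 6 wild type libraries for the 12 genes with the largest rises and the 12 with the largest falls among abundant genes whose days do not overlap. Green marks are day 10 and orange marks day 12, with 1 shape per library. Day 12 replicate 3, the orange triangle, is the lowest day 12 library for 11 of the 12 rises.

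Among the other large rises were enzymes of several kinds. AT3G56350, an iron/manganese superoxide dismutase by its annotation, went from 33.1, 58.2 and 24.7 scaled FPKM to 848, 948 and 549.9 (4.37 ± 0.32, adjusted p = 8.3e-12). ACS2, which makes the precursor of ethylene, went from 0.392, 2.05 and 0.498 to 28.7, 29.2 and 19.3 (4.30 ± 0.26, adjusted p = 1.2e-13). SOM (SOMNUS), a CCCH zinc finger protein that holds back light-dependent germination, went from 0.586, 0.752 and 0.276 to 22.7, 28.1 and 11.1 (4.28 ± 0.24, adjusted p = 1.9e-14). In each of these 3 genes the days did not overlap. AT1G54870, AT3G60730, CYP702A6, AT1G72570 and AT2G38900, which encode by annotation a Rossmann-fold protein, a pectin methylesterase inhibitor relative, a cytochrome P450, an AP2-type DNA-binding protein and a protease inhibitor, rose by 3.88 to 4.89.

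Measured as scaled FPKM gained rather than as a ratio, the order was different. AT2G05580, a glycine-rich protein gene by its annotation, went from 7013, 9252 and 6789 scaled FPKM to 41286, 33421 and 29110, the largest gain of all called genes (2.17 ± 0.35, adjusted p = 1.6e-05). The next gains were those of OLEO4, an oleosin of the oil body coat, which went from 2398, 2662 and 2769 to 7356, 7730 and 4271 (1.26 ± 0.27, adjusted p = 0.00049), and of AT3G02480, a LEA family protein, from 655, 805 and 622 to 3783, 2938 and 2948 (2.21 ± 0.36, adjusted p = 1.7e-05). In all 3 genes every day 12 library was above every day 10 library. AT1G04560, an AWPM-19-like membrane protein, also gained much, from 1385, 1417 and 1507 to 3871, 4141 and 2571 (1.27 ± 0.46, adjusted p = 0.04), but its call was lost in 5 of the 6 fits that each left out 1 library, all but that without day 12 replicate 3, with values from 1.14 to 1.48 over the 6 fits.

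LEA and desiccation genes rose where they changed. Of 25 tested, 14 rose (56.0%, against 11.8% of all genes), none fell, and 24 had a positive log2 difference, with a median of 1.05. Besides EM1 and AT3G15670, the dehydrin RAB18 went from 4.97, 1.41 and 2.02 scaled FPKM to 37.3, 44.3 and 10.8 (3.17 ± 0.60, adjusted p = 0.00014). SMP1, a seed maturation protein, went from 2.99, 2.62 and 2.33 to 20.8, 25.4 and 10.3 (2.53 ± 0.38, adjusted p = 4.5e-06). AT3G17520, a LEA family protein, went from 49.9, 32.8 and 40.1 to 264, 175 and 119.9 (2.12 ± 0.32, adjusted p = 6.3e-06). All day 12 libraries exceeded all day 10 libraries in these genes, and replicate 3 was the lowest day 12 library for 22 of the 25 list members. The share of each library's reads in LEA genes was 0.239, 0.227 and 0.196% at day 10 and 0.478, 0.443 and 0.468% at day 12, so here replicate 3 stood level with the other 2. STS, a stachyose synthase of the raffinose series of protective sugars, was the one of 4 tested genes of that series to rise, from 15.6, 18.1 and 13.8 to 54.7, 53.7 and 25.5 scaled FPKM (1.4 ± 0.22, adjusted p = 1e-05).

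Among genes of ABA, rises were found on both sides of the hormone's turnover. Of 24 tested, 11 rose (45.8%, against 11.8%) and 3 fell, with a median of 0.43. NCED9, a dioxygenase that commits carotenoids to ABA synthesis in the embryo, went from 1.05, 2.25 and 1.5 scaled FPKM to 7.26, 11.5 and 4.73 (1.94 ± 0.30, adjusted p = 7.9e-06). CYP707A2, the hydroxylase that inactivates ABA in seeds, went from 0.304, 0.307 and 0.168 to 3.08, 2.70 and 3.91 (2.29 ± 0.20, adjusted p = 4.6e-10). The days did not overlap in either gene, although levels stayed low. Of the phosphatases that hold back the signal, ABI2, AHG1, HAB1, HAB2, AHG3 and HAI2 rose and ABI1 fell. HAI1 and HAI3 were not called. Among the rises, the phosphatase AHG1 went from 0.325, 0.320 and 0.287 to 2.65, 2.70 and 1.60 (1.77 ± 0.26, adjusted p = 4.8e-06), and the phosphatase ABI2 from 1.09, 1.60 and 1.69 to 5.72, 6.34 and 3.49 (1.51 ± 0.18, adjusted p = 1.3e-07). The phosphatase ABI1, a close relative of ABI2, fell from 3.43, 3.69 and 4.11 to 1.90, 3.50 and 1.81 with overlapping days (-0.59 ± 0.16, adjusted p = 0.0056), and was not called without day 12 replicate 3 (-0.45). ABA2, which acts in a late step of ABA synthesis, fell from 18.5, 18.5 and 19.7 to 11.1, 12.3 and 10.9 (-0.70 ± 0.19, adjusted p = 0.0056).

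Gibberellin genes, among which GASA2 and GASA3 were counted, rose at about the share of all genes. Of 24 tested, 3 rose (12.5%, against 11.8%) and 2 fell (8.33%, against 14.6%), with a median of -0.03. The other to rise was GA2OX8, which inactivates gibberellin precursors, from 0.247, 0.602 and 0.310 scaled FPKM to 2.18, 3.26 and 2.71 (1.87 ± 0.39, adjusted p = 0.00039). RGL2, a DELLA repressor of germination, fell from 5.34, 4.07 and 4.84 to 2.95, 3.17 and 2.14 (-0.70 ± 0.19, adjusted p = 0.0053).

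The maturation regulators moved in both directions. Of 20 tested, 5 rose (25.0%, against 11.8%) and 4 fell (20.0%, against 14.6%), with a median of 0.05, and without the unnumbered library 2 rose and 2 fell. NF-YB6, the LEC1-LIKE subunit of the NF-Y complex, fell most, from 429.6, 336 and 424 scaled FPKM to 67.6, 88.4 and 101 (-2.22 ± 0.40, adjusted p = 6.4e-05). LEC1 and LEC2 were already near 0 at day 10, with 0.248 to 0.442 and 0.0822 to 0.613 scaled FPKM, and fell further (-0.61 ± 0.19, adjusted p = 0.019, and -0.67 ± 0.21, adjusted p = 0.014). FUS3 did not pass the test, at 103, 82.9 and 79.6 and then 73.2, 63.6 and 71.1 (-0.34 ± 0.16, adjusted p = 0.12), though its days did not overlap. ABI3 was at 57.3, 59.2 and 60.2 and then at 87.0, 87.9 and 66.0 (0.43 ± 0.14, adjusted p = 0.017), a rise that becomes -0.07 in unscaled values, where the median gene lies at -0.40.

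Besides ABI3, regulators of dormancy, of seed filling and of the ABA response were among those that rose. DOG1, the main regulator of seed dormancy, went from 96.8, 106 and 99.1 scaled FPKM to 226, 268 and 186 (1.15 ± 0.36, adjusted p = 0.015). DPBF2, the bZIP67 factor of seed filling, went from 187, 169 and 131 to 333, 299.7 and 338 (1.01 ± 0.30, adjusted p = 0.01). ABI5, a bZIP factor of the ABA response, went from 2.91, 6.17 and 5.05 to 9.26, 8.01 and 9.27 (0.90 ± 0.22, adjusted p = 0.0023). Each of the 3 had all day 12 libraries above all of day 10. Leaving out 1 library ended several of these calls: DOG1 without the unnumbered library (1.02, adjusted p = 0.07), DPBF2 without day 10 replicate 3 (0.86, adjusted p = 0.064), and LEC2 without day 10 replicate 1 (-0.46) or 3 (-0.62). The call of LEC1 ended without day 10 replicate 1 or 3, the unnumbered library or day 12 replicate 3 (-0.57 to -0.52), and that of ABI3 without day 10 replicate 1, day 12 replicate 1 or the unnumbered library (0.36 to 0.41), whereas NF-YB6 and ABI5 kept theirs in all 6.

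Neither VAL1 nor VAL2 passed the test, while 3 other genes of their list fell. VAL1 was at 20.5, 19.9 and 20.8 scaled FPKM at day 10 and at 16.5, 18.4 and 17.2 at day 12 (-0.23 ± 0.19, adjusted p = 0.42), and VAL2 was not called either (0.21 ± 0.16, adjusted p = 0.37). Of 13 tested VAL and Polycomb genes none rose (against 11.8%) and 3 fell (23.1%, against 14.6%). FIE, a core subunit of Polycomb repressive complex 2, fell from 19.5, 17.6 and 17.3 to 10.3, 10.1 and 10.8 (-0.77 ± 0.14, adjusted p = 7.6e-05) with no overlap between the days. The other 2 to fall were VAL3 and MSI1, the latter not called in 5 of the 6 fits that left out 1 library, and 1 of the 13 was called without day 10 replicate 3 or without day 12 replicate 1.

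Storage protein genes were at a very high level at both ages, and 1 of them passed the test. Of 13 tested, 1 rose (7.69%, against 11.8%) and none fell, with a median of 0.50, and 11 had a positive difference. CRU3, a 12S cruciferin, was at 88629, 79483 and 93921 scaled FPKM at day 10 and at 279151, 215780 and 97216 at day 12 (1.05 ± 0.72, adjusted p = 0.31). Its day 12 replicate 3 lay near the day 10 libraries while the other 2 lay well above, and replicate 3 was the lowest of its day for 12 of the 13 genes. SESA5, a 2S albumin that stands apart from the near-identical SESA1 to SESA4, was at 411, 558 and 547 and then at 1363, 1730 and 498 (1.07 ± 0.40, adjusted p = 0.047), with overlap between the days. That call was lost in 5 of the 6 fits that left out 1 library, and without day 12 replicate 3 it was 1.62 and 3 of the 13 genes rose.

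The share of reads in storage protein genes gave the same picture. It was 39.3, 37.7 and 41.2% at day 10, and 58.4, 50.4 and 38.3% at day 12. Day 12 replicate 1 and the unnumbered library were above day 10, and replicate 3 was within its range. The mean difference was 9.63 percentage points, with p = 0.3 in a two-sided exact permutation test, whose smallest possible value with 3 libraries a group is 0.1. It was 4.95 points without day 12 replicate 1 and 15.0 without day 12 replicate 3, and 5.73 with the reference form of each transcript alone.

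**Figure D3:**
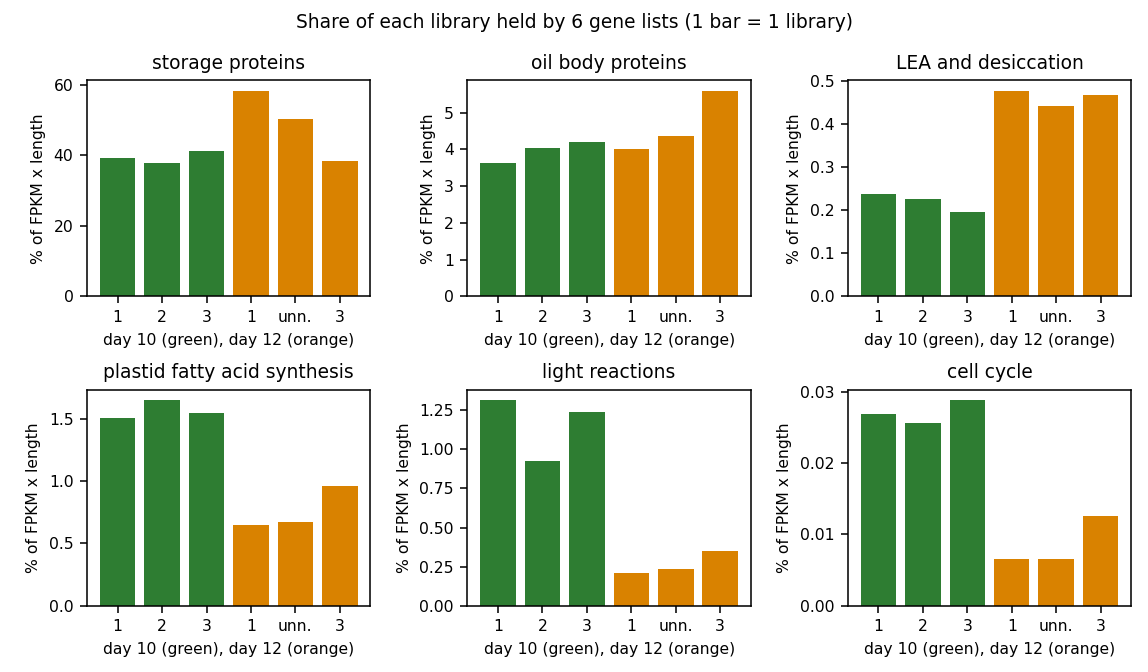
Percentage of each wild type library's reads (FPKM times length, 1 bar per library) held by 6 gene lists, day 10 in green and day 12 in orange. Light reaction genes fell from 0.926 to 1.32% at day 10 to 0.209 to 0.348% at day 12, while storage protein shares overlapped between the days.

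Oil body proteins, which coat the stored oil, rose in part. Of 12 tested, 6 rose (50%, against 11.8%) and none fell, with a median of 0.68. The OLEO4 whose gain is given above is not a member of this list and is not among the 6. CLO1, a caleosin, went from 1498, 1500 and 1420 scaled FPKM to 3452, 3472 and 2590 (1.09 ± 0.24, adjusted p = 0.00092). HSD5, whose upstream sequence is shown above, went from 105, 93.1 and 92.1 to 247, 247 and 148 (1.10 ± 0.23, adjusted p = 0.00037). In both genes the days did not overlap. The most abundant oleosin, OLEO1, was not called, at 20682, 22648 and 25714 and then 42024, 43994 and 37974 (0.85 ± 0.36, adjusted p = 0.084). Without day 10 replicate 2 or the unnumbered library 3 of the 12 rose and without day 12 replicate 1, 2 did, and in unscaled values 2 rose and 1 fell. The share of reads was 3.62, 4.05 and 4.2% and then 4.02, 4.38 and 5.6%, a difference of 0.713 points with overlap (two-sided exact permutation p = 0.3; 0.245 points without day 12 replicate 3).

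Genes of the storage vacuole and of protein processing changed in both directions. Of 12 tested, 5 rose (41.7%, against 11.8%) and 4 fell (33.3%, against 14.6%), with a median of 0.46. Among the rises, TIP3;2, a seed aquaporin of the protein storage vacuole, went from 360.1, 329 and 394 scaled FPKM to 1222, 1033 and 658 (1.38 ± 0.25, adjusted p = 5.7e-05), and the processing protease alpha-VPE from 0.649, 0.434 and 0.865 to 2.80, 4.04 and 3.42 (1.78 ± 0.47, adjusted p = 0.0043). TIP3;1, beta-VPE and gamma-VPE rose by 0.77 to 1.31, TIP3;1 not without day 12 replicate 1 (1.16) or the unnumbered library (1.20), and gamma-VPE not without the unnumbered library (0.63). The falls included the folding helpers of the endoplasmic reticulum, PDIL1-1, from 369, 333 and 414 to 235, 199.9 and 186 (-0.84 ± 0.32, adjusted p = 0.048), and the near-identical BIP1 and BIP2, and the other fall was that of VPS29, a subunit of the retromer (-0.43). The days did not overlap for TIP3;2, alpha-VPE or PDIL1-1. Without day 10 replicate 1 none of the 12 fell, without the unnumbered library 3 rose and 1 fell, and the call of PDIL1-1 was lost in all 6 fits that left out 1 library, between -0.94 and -0.76. The calls of BIP1 and BIP2 were lost in 4 of the 6, all but those without day 10 replicate 2 or day 12 replicate 1, and that of VPS29 without day 10 replicate 1 (-0.36).

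Genes for making fatty acids in the plastid mostly fell where they changed. Of 37 tested, 12 fell (32.4%, against 14.6%) and 1 rose, with a median of -0.64. BCCP1, the biotin carrier of acetyl-CoA carboxylase, went from 105, 105 and 117 scaled FPKM to 46.5, 54.2 and 61.2 (-1.01 ± 0.20, adjusted p = 0.00024). KCR, the ketoacyl reductase of the chain-building cycle, went from 408, 419.7 and 462 to 235, 212 and 209 (-0.97 ± 0.27, adjusted p = 0.0066). Both had all day 12 libraries below all of day 10. ACP5, an acyl carrier protein gene and among the largest losses in scaled FPKM, went from 815, 921 and 942 to 286, 377 and 321 (-1.45 ± 0.53, adjusted p = 0.039), a call that was lost in each of the 6 fits that left out 1 library. The number that fell was 7 without day 10 replicate 3 or without day 12 replicate 3, and 31 in unscaled values.

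Genes of the later steps of oil making rose at the share of all genes. Of 17 genes of oil assembly, desaturation and elongation, 2 rose (11.8%, against 11.8%) and none fell (against 14.6%), with a median of -0.07. DGAT1, which adds the last acyl chain to oil, was at 48.9, 56.6 and 52.6 scaled FPKM and then at 52.3, 50.8 and 41.3 (-0.14 ± 0.14, adjusted p = 0.51), with overlapping days. WRI1, the transcription factor that activates fatty acid genes, was at 267, 284 and 301 and then at 207, 247 and 199 (-0.39 ± 0.25, adjusted p = 0.27). In unscaled values 9 of the 17 fell and none rose.

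Single genes of carbon supply and of oil breakdown rose, at shares near those of all genes. SUS3, a sucrose synthase of late maturation, went from 12.5, 10.3 and 10.3 scaled FPKM to 78.3, 62.2 and 36.1 (2.3 ± 0.23, adjusted p = 3.2e-09), while of 17 sucrose and starch genes 2 rose (11.8%, against 11.8%) and 1 fell (5.88%, against 14.6%), with a median of -0.33. ICL, isocitrate lyase of the glyoxylate cycle that later turns oil into sugar, went from 51.7, 41.6 and 41.7 to 128, 126 and 89.4 (1.33 ± 0.19, adjusted p = 2e-06), and it was 1 of 2 lipid mobilisation genes of 12 that rose (16.7%, against 11.8%). Neither gene had overlapping days.

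Most genes of the light reactions of photosynthesis fell. Of 40 tested, 32 fell (80.0%, against 14.6%) and none rose, all 40 had a negative difference and no overlap between the days, and the median was -1.84. PSBO2, a stabilising protein of the water-splitting complex, went from 75.8, 34.8 and 69.0 scaled FPKM to 2.87, 2.6 and 2.19 (-4.23 ± 0.39, adjusted p = 1e-09). PETE1, the plastocyanin that carries electrons between both photosystems, went from 30.0, 15.8 and 30.1 to 1.06, 1.37 and 0.922 (-3.95 ± 0.36, adjusted p = 5.8e-10). LHCB5, an antenna protein of photosystem II, went from 490.4, 315 and 465 to 53.3, 58.8 and 54.5 (-2.90 ± 0.51, adjusted p = 4.9e-05). In all 3 genes day 10 replicate 2 was the lowest of its day and the 3 day 12 libraries were close to each other. CAB1, one of several near-identical antenna genes whose reads may be split between copies, lost the most scaled FPKM, from 1084, 664 and 1171 to 188, 198 and 186 (-2.30 ± 0.74, adjusted p = 0.019), and was not called without day 10 replicate 1 or 3 (-2.20 and -2.15).

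The Calvin cycle and chlorophyll synthesis followed the same direction. Of 10 Calvin cycle genes 7 fell (70.0%, against 14.6%), or 4 without day 10 replicate 1, and of 7 chlorophyll synthesis genes 6 fell (85.7%). RCA, which activates Rubisco, went from 51.6, 31.1 and 51.3 scaled FPKM to 14.1, 14.8 and 10.5 (-1.71 ± 0.33, adjusted p = 0.00016). PORB, which reduces protochlorophyllide in the light, went from 10.5, 9.77 and 13.6 to 1.58, 1.48 and 1.64 (-2.50 ± 0.40, adjusted p = 1.2e-05). GLK1, a transcription factor that promotes chloroplast development, went from 7.17, 3.63 and 5.87 to 0.950, 1.19 and 1.04 (-1.91 ± 0.30, adjusted p = 8e-06). The days did not overlap in any of the 3.

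Some chlorophyll breakdown genes rose at the same time. Of 10 tested, 3 rose (30.0%, against 11.8%) and 2 fell (20.0%, against 14.6%), with a median of 0.19. SGR2, a STAY-GREEN protein, went from 1.08, 0.866 and 0.775 scaled FPKM to 5.72, 6.18 and 4.29 (2.06 ± 0.27, adjusted p = 5.9e-07). SGR1, the STAY-GREEN enzyme that takes magnesium out of chlorophyll, went from 3.59, 3.93 and 3.31 to 7.92, 9.73 and 7.94 (1.13 ± 0.23, adjusted p = 0.0004). PPH, the pheophytinase that acts next, went from 9.24, 8.38 and 7.90 to 29.7, 29.3 and 18.1 (1.51 ± 0.20, adjusted p = 8.3e-07). Every day 12 library was above every day 10 library in the 3 genes. The 2 that fell, NOL and HCAR, act in the conversion of chlorophyll b to chlorophyll a.

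Cell division genes, already low at day 10, fell further. Of 36 cell cycle genes, 30 fell (83.3%, against 14.6%) and none rose, with a median of -1.46. KNOLLE, the syntaxin that builds the cell plate, went from 12.3, 8.42 and 12.3 scaled FPKM to 1.93, 2.45 and 2.77 (-1.99 ± 0.32, adjusted p = 1.2e-05). CDKB2;1, a mitotic kinase, went from 7.94, 6.06 and 7.84 to 0.978, 1.81 and 1.76 (-1.97 ± 0.26, adjusted p = 9.2e-07). PCNA1, the DNA polymerase clamp, went from 2.29, 2.08 and 4.21 to 0.445, 0.238 and 0.0803 (-2.13 ± 0.21, adjusted p = 2.4e-09). The days were apart in all 3 genes. None of 5 tested cell cycle inhibitor and endocycle genes was called.

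Histone genes went the same way. Of 37 tested, 21 fell (56.8%) and 1 rose, with a median of -0.57, though several are near-identical copies that reads may not tell apart. HTA11, an H2A.Z histone, went from 19.0, 17.4 and 30.6 scaled FPKM to 2.76, 2.49 and 3.92 (-2.66 ± 0.36, adjusted p = 9.3e-07), and the days did not overlap. Of 51 cytosolic ribosomal protein genes 10 fell (19.6%, against 14.6%) and none rose, with a median of -0.23, and in unscaled values 36 fell. Of 33 plastid ribosomal protein genes 7 fell (21.2%, against 14.6%) and none rose, although the list's median was 0.60. The list holds 9 genes of the nucleus, all with a negative difference and 7 of them called (median -0.96), and 24 of the plastid genome, all with a positive difference and none called (median 0.89). The plastid-encoded genes had a median level of 1.34, 0.963 and 0.904 scaled FPKM at day 10 and of 0.559, 7.06 and 1.65 at day 12, and the unnumbered library was the highest of its day for 23 of the 24. Without that library their median difference was 0.25, 16 of the 24 were positive, and the median of the whole list was 0.01. Of 24 embryo pattern and meristem genes 4 fell (16.7%, against 14.6%): the auxin transporters PIN3 and PIN7, the auxin response factor MP and the root pattern gene SCR, with differences of -1.26 to -0.39. SCR kept its call in 2 of the 6 fits that left out 1 library, those without day 10 replicate 2 and without the unnumbered library, and ranged from -0.55 to -0.22 over the 6.

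The 12 largest falls also held genes outside photosynthesis. AT1G09750, an aspartyl protease by its annotation, went from 33.4, 19.4 and 47.0 scaled FPKM to 0.489, 0.532 and 0.461 (-5.00 ± 0.31, adjusted p = 3.2e-13). AT3G10185, a gibberellin-regulated GASA family gene by its annotation, went from 24.7, 11.4 and 30.8 to 0, 0.181 and 2.25 (-4.43 ± 0.46, adjusted p = 7.1e-09), opposite in direction to GASA2 and GASA3. AT4G30880, a lipid transfer protein, went from 766, 552 and 757 to 68.9, 87.5 and 75.1 (-3.15 ± 0.64, adjusted p = 0.00031). In these genes no day 12 library reached a day 10 library. Among 58 lipid transfer proteins 13 fell (22.4%, against 14.6%) and 4 rose, with a median of -0.26. E13L3, a glucanase-like protein by its annotation, went from 20.5, 11 and 24.9 to 0.86, 1.4 and 1.52 (-3.40 ± 0.29, adjusted p = 1.8e-10).

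Cell wall enzymes were called in both directions, the rises at about the share of all genes. Of 32 tested, 4 rose (12.5%, against 11.8%) and 10 fell (31.2%, against 14.6%), with a median of -0.07. XTH25, a xyloglucan endotransglucosylase, went from 7.24, 10.6 and 6.25 scaled FPKM to 89.4, 95.8 and 62.2 (3.29 ± 0.32, adjusted p = 2.4e-09). EXPA10, an expansin that loosens walls, went from 9.49, 4.86 and 6.16 to 46.1, 37.1 and 14.3 (2.06 ± 0.40, adjusted p = 0.00019). Both genes had day 12 wholly above day 10.

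Of 757 genes listed as transcription factors by keywords in their annotation, 101 rose (13.3%, against 11.8%) and 115 fell (15.2%, against 14.6%). The keyword match is loose and also took in general factors, such as TAF7 and TAF13, and chromatin proteins, such as HMGB2. IAA32, an atypical member of the auxin/IAA repressor family, rose most, from 2.2, 4.93 and 3.47 scaled FPKM to 51.4, 57.6 and 47.5 (3.76 ± 0.54, adjusted p = 2.5e-06). AGL67, a MADS-box factor of maturing seeds, went from 105, 111 and 73.4 to 208, 205 and 277 (1.26 ± 0.22, adjusted p = 5.9e-05), with replicate 3 the highest of day 12. PIL2, a phytochrome-interacting factor also called PIF6, went from 27.6, 37.7 and 24.5 to 85.7, 75.8 and 72.9 (1.39 ± 0.21, adjusted p = 8e-06). Among the falls, XND1, a NAC factor that restrains xylem formation, went from 45.0, 44.5 and 42.2 to 8.45, 13.3 and 17.8 (-1.76 ± 0.32, adjusted p = 8.1e-05). 3xHMG-box2, a protein of mitotic chromosomes, went from 18.4, 12.8 and 19.1 to 3.30, 2.27 and 4.60 (-2.17 ± 0.33, adjusted p = 7.5e-06). No overlap between the days was seen in these 5 genes.

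Some rises differed much among the day 12 libraries. KIN1 and KIN2, neighbouring and near-identical genes of the cold response, were at 3.17, 22.3 and 12.5 and at 3.87, 20.6 and 18.8 scaled FPKM at day 12, against 0.143 to 0.273 and 0.278 to 0.735 at day 10 (3.85 ± 0.46, adjusted p = 1.1e-07, and 3.56 ± 0.46, adjusted p = 5.1e-07). ZAT12, a zinc finger protein of the stress response, was at 2.44, 5.09 and 1.65 and then at 6.10, 25.9 and 9.16 (1.86 ± 0.53, adjusted p = 0.008). The unnumbered library was the highest in each of these 3 genes, and without it ZAT12 was not called (1.28, adjusted p = 0.1), nor was it without day 10 replicate 3 (1.55, adjusted p = 0.059). Of 12 tested cold and touch genes 3 rose (25.0%, against 11.8%) and 1 fell (8.33%, against 14.6%). Embryos were handled in the cold at both ages, and the part of handling in these values was not tested.

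Endosperm and seed coat markers stayed low with 1 exception. The summed level of the 8 endosperm markers was 19.9 to 30.2 scaled FPKM at day 10 and 73.9 to 170 at day 12, nearly all of it EPR1, an extensin-like gene of the seed endosperm, at 16.9, 21.1 and 28.1 and then 132, 170.3 and 73.7 (2.43 ± 0.57, adjusted p = 0.0015). SUC5, a sucrose transporter of the endosperm, fell from 2.91, 1.19 and 2.05 to 0.0972, 0.0508 and 0.177 (-2.01 ± 0.27, adjusted p = 9.3e-07). So 1 of the 4 tested markers rose (25.0%, against 11.8%) and 1 fell (25.0%, against 14.6%), and both had no overlap between the days. The 10 seed coat markers summed to 14.4 to 15.3 and then 9.21 to 15.1 scaled FPKM. Of 6 tested, none rose (against 11.8%) and 2 fell (33.3%, against 14.6%), MUM2 (-0.90) and TTG2 (-0.49).

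The 2-day step can be set beside those on either side of it, days 8 to 10 and days 12 to 13, which share libraries with it. From day 8 to day 10, 10459 genes changed (56.9%), 27.9% up and 28.9% down, and from day 12 to day 13, over 1 day, 3946 did (21.5%), 8.96% up and 12.5% down. The lists were at different points of their course. Storage protein genes had a median log2 difference of 4.66 from day 8 to 10, then 0.50, then 0.06, and oil body genes of 2.64, then 0.68, then 0.29. LEA genes had medians of 1.97, 1.05 and 1.53, light reaction genes of -1.12, -1.84 and -1.99, plastid fatty acid genes of -0.34, -0.64 and -0.68, and cell cycle genes of -2.64, -1.46 and -0.53. By a direct test of both steps, the later step was the lower for 13 of 13 storage protein and 9 of 12 oil body genes and the higher for 26 of 36 cell cycle genes, whose falls were thus larger before day 10. That test called 2 of 40 light reaction genes, both with the lower later step, and 1 of 37 plastid fatty acid genes, with the higher.

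**Figure D4:**
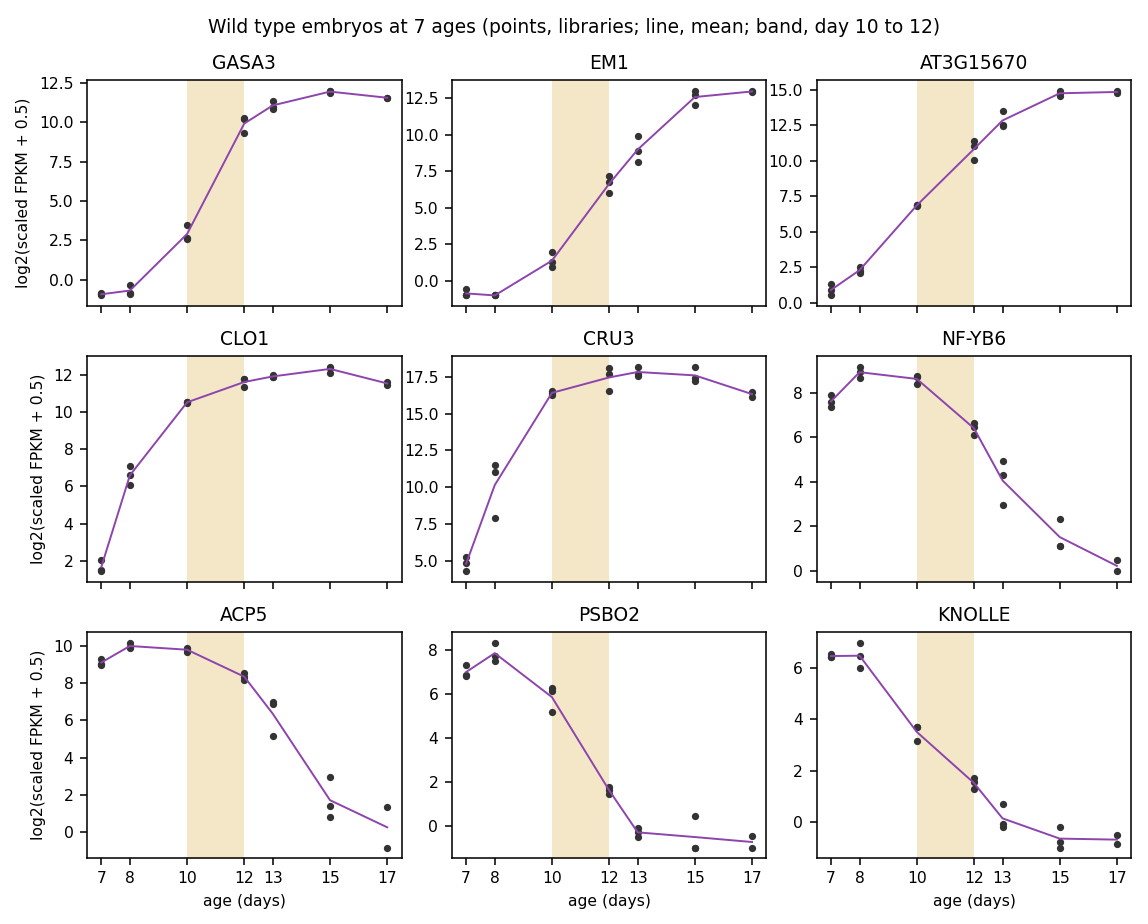
Log2(scaled FPKM + 0.5) of 9 genes in wild type embryos against age in days. Points are libraries, the line joins the means of each age and the shaded band is day 10 to day 12. GASA3 rises within the band, CLO1 and CRU3 make most of their rise before it, and PSBO2 falls before, within and after it, with its steepest drop within it.

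Over all genes, the test of the step after day 10 against the step before it called 4904 genes (26.7%). In 2633 (14.3%) the later step was the higher, and in 2271 (12.3%) the lower. Without scaling these counts became 3177 and 1041, and with totals taken without storage and oil body genes 1907 and 3010. Higher later steps included GASA3, whose mean was 0.131 scaled FPKM at day 8, 2196 at day 13 and 3991 at day 15 (difference of the steps 3.43, adjusted p = 5.2e-06), and EXPA10, which fell before day 10 and rose after it (3.65, adjusted p = 0.00024). The day 8 values of GASA3, 0.0636, 0.0236 and 0.307, lie under the 0.5 added before logs. That lessens its earlier step, so the size of its difference depends on the added value. Lower later steps included AT2G05580, at a mean of 12.4 scaled FPKM at day 8 (-7.17, adjusted p = 5.6e-10), and AT1G04560, at 5.78 (-6.94, adjusted p = 1.9e-07). NF-YB6 was not called between days 8 and 10 (a log2 difference of -0.30, adjusted p = 0.54) and then went to 18.8 scaled FPKM at day 13 and 2.62 at day 15 (-1.91 for the steps, adjusted p = 0.037). DOG1 made most of its rise before day 10, from a mean of 2.02 at day 8 (-4.30 for the steps, adjusted p = 6.7e-06).

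The val1 embryos of the same ages give the interval in 6 libraries that none of the wild type values share. In val1, 4327 genes changed (23.5%), of which 1925 rose (10.5%) and 2402 fell (13.1%). Without scaling 491 rose and 7352 fell there, and with totals taken without storage and oil body genes 1143 and 3370. Of the wild type rises, 1312 also rose in val1, which is 60.4% of the wild type and 68.2% of the val1 rises. Of the wild type falls, 1833 also fell, which is 68.3% and 76.3%. None of the wild type rises fell in val1, and 3 of the wild type falls rose. GASA3 rose by 6.46 ± 0.28 in val1, EM1 by 5.33 ± 0.47, and PSBO2 had a difference of -3.85 ± 0.39. NF-YB6 was not called there (-0.95 ± 0.40, adjusted p = 0.083), and the difference between both genotypes did not pass its own test (-1.27 ± 0.56, adjusted p = 1).

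A test of the interval by genotype called 32 genes (0.174%), 14 with the higher change in wild type (0.0761%) and 18 with the lower (0.0979%). AT4G39860, of no annotated function, was the one gene of them that is abundant in wild type. It went from 21.7, 20.4 and 21.7 scaled FPKM to 7.48, 7.66 and 8.56 in wild type (-1.37 ± 0.13, adjusted p = 2.4e-09), with no overlap, and by -0.33 ± 0.13 in val1 (difference -1.05, adjusted p = 0.0038). Some of the others, chosen after their values were seen, have annotated roles in iron nutrition. FRO3, a ferric reductase, had a difference of -3.0 between the genotypes (adjusted p = 0.0035), and FER4, a ferritin that stores iron, of 2.05 (adjusted p = 0.028). In both genes the larger step was that of val1. The log2 difference of FRO3 was 0.25 in wild type, at means of 0.44 and then 0.62 scaled FPKM, and 3.25 in val1. That of FER4 was -0.08 in wild type and -2.13 in val1. ORG1, named for its response to the factor OBP3, differed by -2.37 (adjusted p = 0.0038). It was at 11.2, 17.0 and 8.91 scaled FPKM in the wild type day 12 libraries and at 75.1, 98.8 and 83.8 in those of val1. The number of genes called depended on the settings, from 2 to 58.

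**Figure D5:**
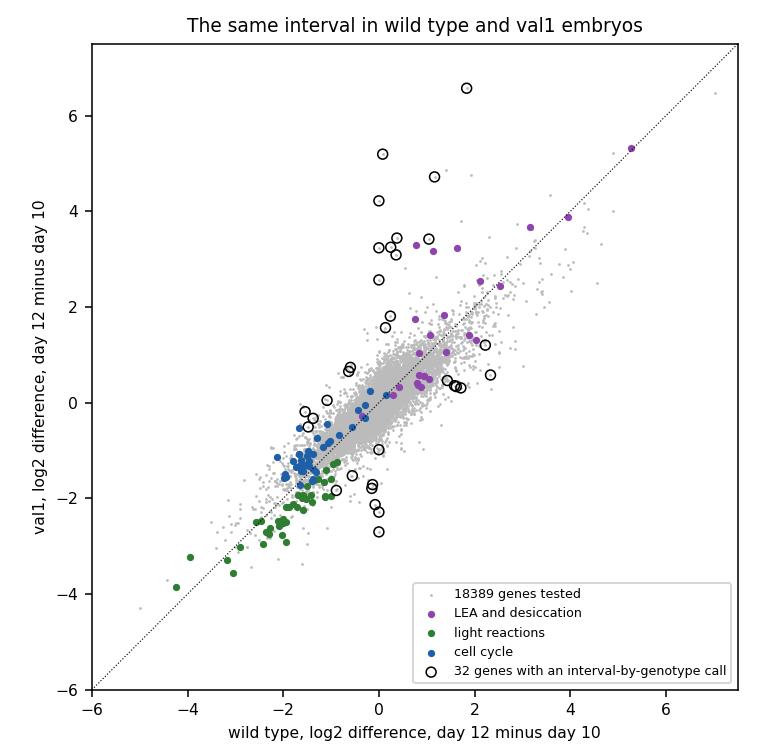
Log2 difference between day 12 and day 10 in wild type (horizontal axis) and val1 embryos (vertical axis) for 18389 genes, 1 point each. LEA, light reaction and cell cycle genes are coloured, and rings mark the 32 genes with an interval-by-genotype call, many of which lie near 0 in wild type. The dotted line marks equal change.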

How the data were processed

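Per the labels, RNA of dissected embryos was sequenced in paired ends. The submitters' processing notes list TAIR10, TopHat2 and StringTie, and give no version or role. The authors deposited an FPKM value and a length in bases for each transcript. Those with class code = or j were added up per gene (52881 of 53988 transcripts, 33544 genes). Scale factors between libraries came from trimmed log ratios (30% of ratios and 5% of means trimmed). Limma 3.58.1 (R 4.3.3) was run on log2(scaled FPKM + 0.5), with 14 group means over all 41 libraries and 27 residual degrees of freedom, for 18389 genes with at least 1 FPKM in 2 libraries, Benjamini-Hochberg adjustment and a threshold of 0.05. The fit was also run on simulated data with independent noise in each library. That run left out the scaling step and changed far fewer genes, so it does not test the calls made here. Shares of reads are FPKM times length, compared by an exact permutation test.

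The smallest FPKM times length above 0 in each library was assumed to be a fixed fraction of a read. That assumption gave the depth estimates and a test on recovered reads. On that scale 100% of low values came in whole twelfths of a read (tolerance 0.02), which does not test the assumed unit. Another sheet bears the name of counts but holds values that are not whole. They were taken as a signal that the authors deposited, made by a step not given in the sources used here, and served as an alternative. The deposited comparison table was not used here. All columns were matched to a sample or its group, with 0 left over. The day 12 column marked as a replacement has no sample number, so replicate numbers pair 2 libraries a day (correlations of deviations -0.0114 and -0.0346), and no pairing was used.

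Members and gene lists were chosen with earlier results of these data known. Named genes are the 12 largest rises and falls among called genes with a mean of at least 10 scaled FPKM and no overlap, the 6 largest gains and losses, up to 4 called members of a list in each direction and those whose role is described, 6 transcription factors in each direction, and 5 in each direction of the genotype and step tests. Alternatives changed the pseudocount, filter, scaling, samples, class codes, sheet and test, and left out each library. Promoters are 250 bases from RefSeq's TAIR10.1, matched by locus tag, with no conversion of coordinates. Matplotlib 3.10.9 drew the figures.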

Additional observations from a re-analysis of the deposited data

Results flagged for a closer look

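The change between day 10 and day 12 differed between wild type and val1 embryos in 32 genes by limma's test of the difference. AT4G39860 was among them with a difference of -1.05 (wild type minus val1), as were FRO3 with -3.0, ORG1 with -2.37 and FER4 with 2.05. Of the signals outside the genes compared, transcripts of other class codes held 3.60% of the reads of the unnumbered day 12 library, above every day 10 library.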

How the results depend on the processing

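The number of wild type genes that changed kept within 1.5 times of 4856 under other pseudocounts, filters, class codes, medians of ratios, totals without storage and oil body genes, smaller sets of libraries and recovered reads, and was 3760 to 4510 when 1 library was left out. It was 7832 without scaling and 2554 from the sheet named for counts. With a replicate block on the 2 numbered pairs, which also means fewer samples, it was 0 by limma, with 4553 genes at an unadjusted p under 0.05, and 1448 on the same 4 libraries with no replicate term, an alternative added after the data were seen. The replicate numbers share only a number, so no pairing was used. For val1 the count was 7843 without scaling, 2077 from that sheet and 3023 to 3898 with 1 library left out. The interval by genotype count of 32 became 21 with a pseudocount of 0.1, 58 without a filter, 16 with a filter of 5 FPKM, 4 on recovered reads and 2 with a replicate block, and ranged from 27 to 45 with 1 library left out. The test of both steps gave 2122 from the sheet, and 3014 to 5032 with 1 library left out, lowest without day 10 replicate 2 (3014) or 1 (3225). The log2 difference of ABI3 turned to -0.067 without scaling. The cause of these shifts was not tested. Of the 102 genes named, 93 were called, and 67 of the 102 kept their direction and their side of the threshold in each alternative outside the fits of 4 libraries. Shares of reads held by storage proteins and by oil body proteins kept their direction without each library (4.95 to 15.0 and 0.245 to 1.04 percentage points).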
